A study of Drosophila melanogaster with 3 samples.

Results

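Peaks of the juvenile hormone receptor Met whose summits lay 0 to 500 bp downstream of a protein-coding transcription start site (TSS) are described here. A peak was a member when its nearest annotated TSS belonged to a protein-coding gene and its summit lay in that range in the direction of transcription. Of the 8513 peaks that the authors kept by reproducibility (irreproducible discovery rate, IDR), 538 (6.32%) were members, and they fell at 520 TSSs of 496 genes. Another 1916 peaks had their summits 1 to 500 bp upstream of a coding TSS and serve as the comparison. The position of the summit chose the members, so position itself is a description and carries no test.

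Binding was mapped by chromatin immunoprecipitation and sequencing in Drosophila melanogaster at the white prepupa stage, when the puparium has just formed. The flies were of a transgenic Met-GFP line that carried Met with green fluorescent protein at the C-terminus, and the tagged protein was pulled down from whole animals with an antibody to GFP. Males and females were pooled, the age is given as unknown, and all 3 biological replicates formed 1 group, so no genotype, treatment or time was compared with another. Whole animals mix all tissues, so a weak peak in many cells and a strong peak in few cells cannot be told apart, and binding by the tagged transgene product was measured in place of that by the untagged protein. Read counts are not part of such lists, and library depth is therefore unknown. The signal of a peak is the authors' own value, used for ranking and description inside 1 list. The 3 replicates were called against the same control, and the IDR list was derived from them, so agreement between the lists is not independent of either.

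Met belongs to the bHLH-PAS family, whose members bind DNA as dimers, and it activates target genes with the partner Taiman when juvenile hormone is present. The palindromic E-box CACGTG and the related C-box CACGCG are hexamers known to be bound by bHLH and bHLH-PAS dimers. The stretch just downstream of a TSS holds the 5′ UTR, often the start of the first intron and, in short leaders, the start codon, and RNA polymerase II is known to pause there in many fly genes.

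The DNA around the 20 strongest summits was rich in A and T, with a median of 31.7% G+C in 101 bp, and held neither hexamer within 50 bp. The sequences below are those of 5 of the strongest members that lie in leader exons, 30 bases each, and are given on the strand of the gene with the summit base in capitals (RefSeq Release 6 assembly, dm6). They lay at chr3R:31404645-31404674, chr3L:22878884-22878913, chr2L:6066079-6066108, chr3L:2373599-2373628 and chr3L:2257478-2257507.
PNPase: agaaacgtacagggcTtttattgtaagatt
Chro: tgcagttagtttaaaGctatcgacaggcaa
CG9147: tggcagttgcagtaGttcaaaaattaagtt
mRpL23: ggtaaaagtgtggaaTattttatagttaca
Elp5: gaaaaaatagtgtgCatttaatatacgttc
The next 2 are 101-base windows around strong summits that lay in introns clear of any UTR, at chr3R:24543177-24543277 and chrX:6985330-6985430. They are shown for their base composition, with 33.7% and 28.7% G+C.
Cftr: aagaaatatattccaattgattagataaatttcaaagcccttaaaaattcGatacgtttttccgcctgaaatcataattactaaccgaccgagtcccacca
ogre: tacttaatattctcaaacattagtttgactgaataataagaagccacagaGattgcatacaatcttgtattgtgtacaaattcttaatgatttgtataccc

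A smaller set of members carried the hexamers, and these are shown for contrast on the strand of the gene with the hexamer in capitals. A C-box reads CGCGTG when it lies on the other strand. The windows lay at chr2L:10201001-10201030, chrX:7096700-7096729, chr3R:25684992-25685021, chrX:4322816-4322845, chr3R:18403046-18403075 and chr3R:15243573-15243602.
RpL7: tggccgatggcgCGCGTGtCACGTGtgcac
Sxl: ctgagtgtttatCGCGTGtccctttttcac
RpL27: agtggtgtgttcCGCGTGtaaattttgtta
norpA: aaatcacagccaCACGCGctttctgtaact
koko: tttcaaatctgaCACGTGaaggtaaataaa
Hsc70-4: tcaaagtgcgggCACGTGtgtttgtgagcg
The RpL7 window held a C-box and an E-box 1 base apart. No other member had both hexamers that close to its summit, within 50 bp.

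Member summits crowded toward the TSS. The median distance was 98.5 bp, the quartiles were 42.0 and 246 bp, and the farthest summit lay at 499 bp. The first 50 bp held 156 members, the next 50 bp held 116, and the stretch from 100 to 199 bp held 107. Beyond it the count fell to 49 members from 200 to 299 bp and 110 from 300 to 500 bp, which is 312 members per 100 bp next to the TSS and 54.7 per 100 bp at the far end. There was no gap at the TSS, since the number of summits declined steadily from a maximum on the upstream side. When each replicate was limited to its 8513 strongest peaks, 571, 570 and 671 summits lay in the range in replicates 1, 2 and 3, which is 7.10% ± 0.682 of the peaks (SD, n = 3). Their median distances were 96, 99 and 97 bp. The distances thus differed between replicates by 3 bp or less, while replicate 3 held more such peaks than the others.

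**Figure D1:**
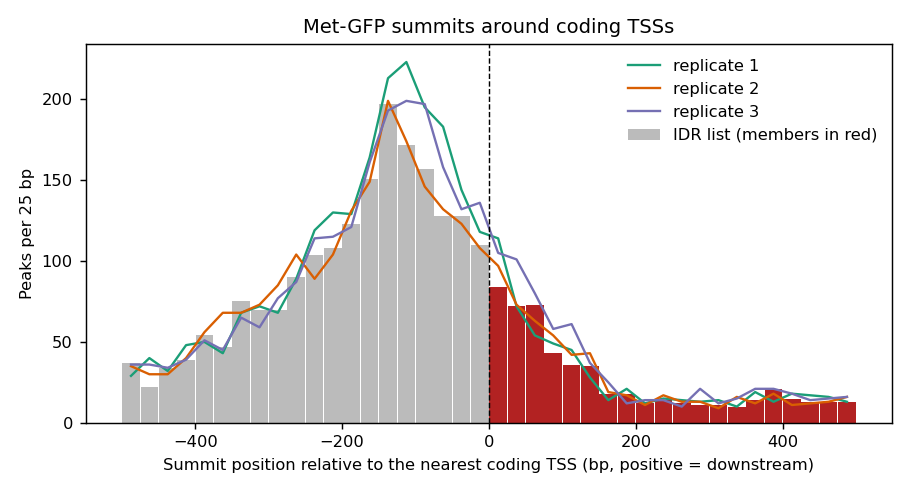
Number of summits per 25 bp (y axis) against their position from the nearest coding TSS in bp (x axis, positive downstream). Bars are the IDR list, with the 538 members in red, and lines are the 3 replicate lists. The counts decline across the TSS with no break and level off beyond about 200 bp.

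The edge at the TSS cut through this slope, while counts were flat at the far edge. Just inside at the TSS lay the summits of Dhod, RpL3 and RpS15Aa, each at 0 bp, with signals of 382, 328 and 271. Just outside, at -1 bp, lay those of Cdc7, eEF5 and CG7484, with signals of 318, 256 and 152. At the far edge the last members were Fim at 499 bp (signal 126) and CG5854 and DopEcR at 495 bp (1106 and 248). The next summits beyond it were mats at 502 bp (478) and P5CS and CG33725 at 503 bp (307 and 225). A tie between TSSs at equal distance could have changed the class of 2 members.

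Close to the TSS the side of a summit varied between replicates. Within the member peaks, 500 of 538 had a summit in the whole relaxed list of every replicate, and the range of the 3 positions had a median of 49 bp. All 3 summits lay 0 to 500 bp downstream of the same TSS for 399 of these 500 (79.8%). For 85 (17.0%) at least 1 replicate placed the summit upstream of the TSS. Almost all of those were members under 100 bp from the TSS, 83 of 253, against 2 of 247 members farther away. Replicate summits were sought only inside the member peak, and many peaks with summits farther from the TSS did not reach it. An upstream position was not possible there, so near and far members cannot be compared on this count. Where 2 member peaks overlapped, 1 replicate summit could also be counted for both. At Acsl both members took the replicate 1 summit of rank 1149.

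Recurrence followed signal. In the strongest 8513 peaks of all 3 replicates 363 members (67.5%) were overlapped by at least 1 bp, against 73.6% of all IDR peaks. A further 121 were overlapped in exactly 2 replicates, 52 in exactly 1 and 2 in none. Among the 108 strongest members 99.1% recurred in all 3, and among the 108 weakest 20.4% did. Upstream peaks over the same ranges of signal recurred in 98.0% and 15.6% of cases. The single replicates overlapped 445, 456 and 482 members. Overlap did not require the replicate summit to lie inside the member. Pcyt1 was counted in all 3, although replicates 1 and 2 had no summit inside the peak. So was the shep member of rank 7359, where the matched summits ranked 23614, 9659 and 15629 in replicates 1, 2 and 3. The part that such overlaps had in the shares was not tested.

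Members were weaker than the peaks just upstream. The median signal was 170 for members and 232 for the upstream peaks. Within the replicate lists the median percentile of signal of the downstream peaks was 45, 42.1 and 40.8 in replicates 1, 2 and 3, and that of the upstream peaks was 59.3, 56.7 and 57.7. The groups' medians did not overlap across replicates, and the difference was -15.3 ± 1.44 points (downstream minus upstream, SD, n = 3, exact sign-flip permutation test over the replicates, 2-sided, p = 0.25). With 3 replicates this p is the smallest the test can give, so by this test none of the 6 comparisons of this kind could pass 0.05. Members were 8 of the 100 strongest IDR peaks and 60 of the 1000 strongest, shares near the 6.32% they made up of the whole list. The mean peak width was 389, 393 and 392 bp downstream and 374, 380 and 376 bp upstream, a difference of 14.6 ± 1.46 bp (SD, n = 3, exact sign-flip permutation test, p = 0.25). Of the members, 364 (67.7%) had a width of exactly 440 bp, as had 52.3% of upstream peaks and 57.9% of all IDR peaks. The part of this common width in the difference of the means was not tested.

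The strongest members lay at genes of mixed function, and the replicates placed most of their summits close together. PNPase, which encodes the mitochondrial polynucleotide phosphorylase, held the strongest, with the summit at 81 bp (dm6 3R, 31404444 to 31404921) and rank 8 among the 8513 peaks. It ranked 7, 8 and 7 in the whole lists of replicates 1, 2 and 3, with summits at 70, 85 and 84 bp. Chro, which encodes the interband protein Chromator, held the next at 86 bp (3L, 22878679 to 22879145). Its rank was 15 in the IDR list and 14, 16 and 19 in the replicates, with summits at 90, 95 and 83 bp. Both therefore kept their rank to within a few places and their summit to within 15 bp.

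After these came CG9147 at 6 bp, GstE13, which encodes a glutathione transferase, at 84 bp, CG8360 at 55 bp, CG8320 at 99 bp, mRpL23, for a mitochondrial ribosomal protein, at 65 bp, and CG11309 at 84 bp. Their ranks ran from 38 to 66. Elp5, for a subunit of the Elongator complex, tank and the SNARE gene Vti1b followed at 36, 130 and 231 bp. Summits lay at 417 bp in ph-p, which encodes the Polycomb group protein polyhomeotic, and at 134 bp in CG12316. The rest of the 20 strongest were at Eip75B, pre-mod(mdg4)-E, CG6287, Cftr, the septin gene pnut, CG5854 and the ferritin light chain gene Fer2LCH. All 20 recurred in every replicate, and in 19 all 3 replicate summits lay at or downstream of the TSS. Some of these peaks, such as those at ph-p and CG6287, did not reach the TSS, so no other side was possible there. The range of the replicate summits had a median of 16.5 bp in these 20, against 49 bp over the 500 matched members, and was largest at Fer2LCH, 71 bp. The 1 of these 20 with a replicate summit upstream was Eip75B, for which replicate 2 placed the summit at -22 bp and the others at 37 and 25 bp.

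**Figure D2:**
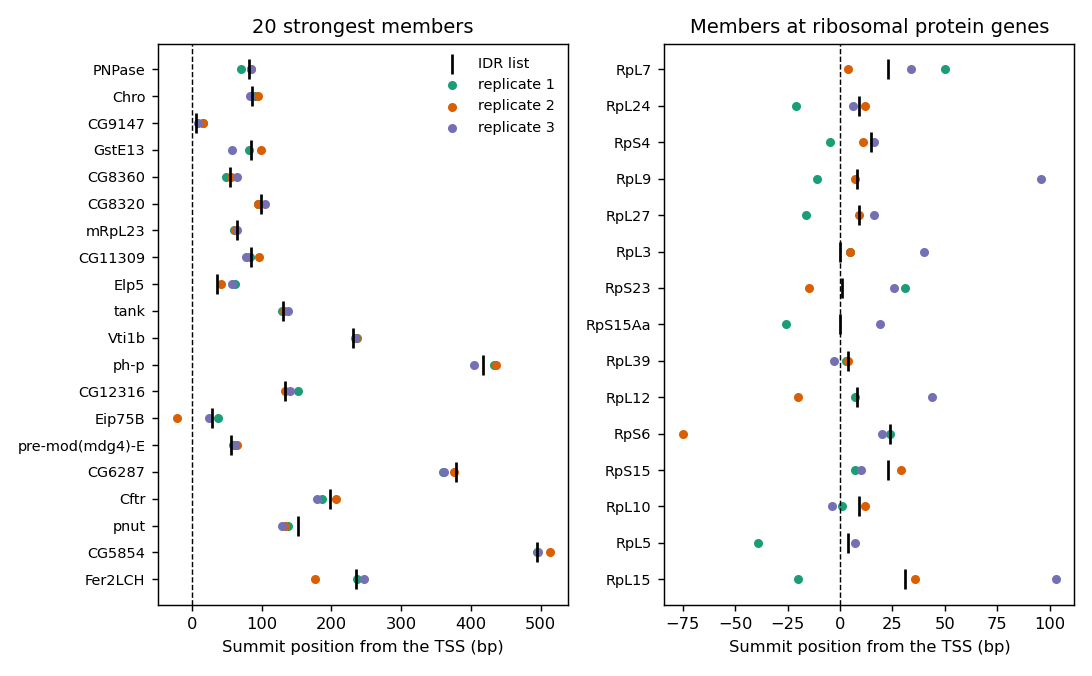
Summit position from the TSS in bp (x axis) for the 20 strongest members and the 15 members at cytoplasmic ribosomal protein genes (rows, strongest first). Black ticks are the IDR list and coloured points the replicates, and the dashed line is the TSS. In most of the strongest members the points sit close together, with the widest range, 71 bp, at Fer2LCH, and at 12 of the 15 ribosomal protein genes at least 1 replicate summit falls upstream of the TSS.

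Many strong members also lay upstream of a further TSS. In 175 members (32.5%) the summit was within 500 bp upstream of another annotated TSS, and in the other 363 it was not. The further TSS belonged to the same gene in 124 members, to a gene on the opposite strand in 107 and to another gene on the same strand in 5, and some had more than 1 kind. Of the 20 strongest members 15 had such a TSS. The share was 52.8% in the 108 strongest members, 41.1%, 26.9% and 17.8% in the next 3 groups of similar size, and 24.1% in the 108 weakest. For example, the Chro summit was 191 bp upstream of Ssl1, and the CG8320 summit 132 bp upstream of Pex11ab. The mRpL23 summit was 115 bp upstream of CG9004. For comparison, all positions 0 to 500 bp downstream of a coding TSS that is their nearest TSS were taken at steps of 10 bp, 863903 in all. Of these census positions 15.8% lay upstream of another TSS, and 22.0% when weighted to the members' distances. Near the TSS, where this is commonest, the shares were 44.2% of members and 31.7% of census positions from 0 to 49 bp, and 36.4% and 22.3% from 100 to 199 bp. From 200 to 299 bp they were 18.4% and 14.3%, and from 300 to 500 bp 5.45% and 5.21%. The census here covers all coding TSSs and not only the members' own. A single TSS was annotated for 25.6% of genes with a member and 73.5% of all coding genes. The part of this in the differences was not tested. Members with a further TSS had a median signal of 251 and those without one 154. The part that the further promoter had in the signal was not tested.

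The genes with members were long, and most had more than 1 annotated TSS. Their median length was 6456 bp, against 4783 bp for genes with an upstream peak and 2166 bp for all 13945 coding genes. A single TSS was annotated for 25.6% of them, for 46.0% of genes with an upstream peak and for 73.5% of coding genes. Of the 406 members in genes with more than 1 TSS, 217 (53.4%) lay at a TSS other than the most upstream, and 60.5% of the coding TSSs of such genes are of that kind. A gene with more TSSs has more places where a member can fall, and the part of this in the difference was not tested. An upstream peak was also present at 126 of the 496 genes (25.4%), against 11.9% of all coding genes, and the member was the stronger of them at 41. The part that the number of TSSs had in this share was not tested either.

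Few member summits fell in coding sequence. Where transcripts from the same TSS differed, a 5′ UTR exon was taken before a coding exon and a coding exon before an intron. On this count 389 members (72.3%) lay in a 5′ UTR exon, 138 (25.7%) in an intron and 11 (2.04%) in a coding exon. The coding share was 2.63%, 2.28% and 2.68% in replicates 1, 2 and 3, with a mean of 2.53% ± 0.218 (SD, n = 3), and the intron share was 25.6% ± 1.93. Census positions weighted to the members' distances were coding in 29.1% of cases. At the members' own 520 TSSs the same weighting gave 5.82%, against 2.04% of members. For 5′ UTR exons it gave 74.0% at these TSSs, near the members' 72.3%, and for introns 20% against 25.7%. The replicates' downstream summits lay partly at genes without a member, which the census at these TSSs does not cover.

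**Figure D3:**
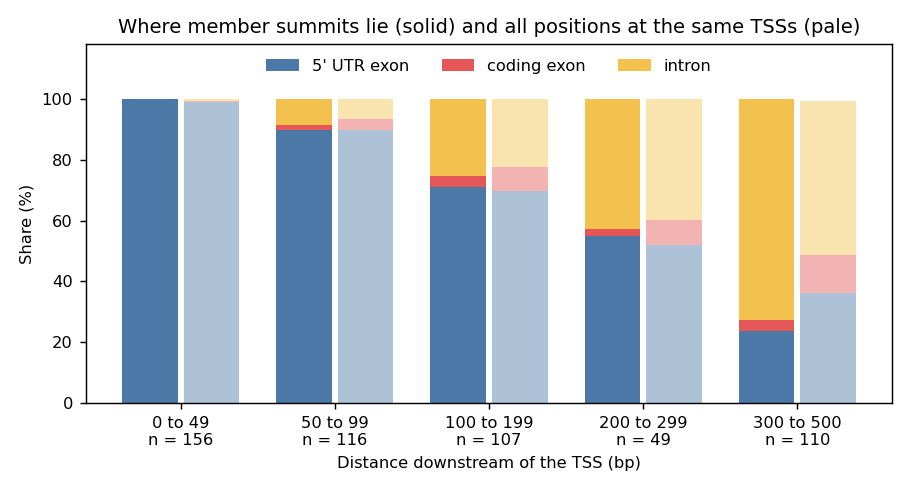
Share in percent (y axis) of member summits (solid bars) and of all positions at the same 520 TSSs (pale bars) that lie in a 5′ UTR exon, a coding exon or an intron, by distance from the TSS in bp (x axis). From 300 to 500 bp introns hold 72.7% of member summits and 50.4% of positions.

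The intron share was higher at larger distances, and up to 299 bp it was within 4 points of the share that the annotation gives at the same TSSs. None of the 156 members in the first 50 bp and 10 of 116 in the next 50 bp lay in an intron. From 100 to 199 bp the count was 27 of 107, from 200 to 299 bp 21 of 49, and from 300 to 500 bp 80 of 110 (72.7%). In the 4 nearer ranges members were in introns in 0%, 8.62%, 25.2% and 42.9% of cases, and positions at their own TSSs in 0.58%, 6.77%, 22.4% and 39.7%. In the last range introns held 50.4% of positions at the members' own TSSs and 30.6% at all coding TSSs. Coding exons there held 3.64% of members, 12.6% of positions at their own TSSs and 51.2% at all. The far members were also somewhat stronger, with a median signal of 200 against 157 to 170 in the 4 nearer ranges. Intronic members had a median signal of 201 and those in 5′ UTR exons 162. Examples from introns were CG6287 at 379 bp, CG5854 at 495 bp and Cat, which encodes catalase, at 304 bp.

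Summits of members held more G+C than those of upstream peaks, and a small majority held less than the DNA around them. The median in 101 bp around the summit was 38.6% in members, 32.7% in upstream peaks and 31.7% over all IDR peaks. In replicates 1, 2 and 3 the downstream medians were 38.6%, 38.6% and 39.6%, and the upstream median was 32.7% in each. The difference was 6.27 ± 0.572 points, higher downstream in 3 of 3 replicates (SD, n = 3, exact sign-flip permutation test, p = 0.25). Windows 500 bp to either side of the member summits had a median of 42.6%, and 308 members (57.2%) were lower at the summit than in these flanks, against 76.8% of upstream peaks. This share was 80.4% in intronic members and 50.1% in those in 5′ UTR exons. It was 70.9% in members upstream of another TSS and 50.7% in the other 363.

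Within the members G+C depended on distance and on signal. It was 44.6% (median) in the first 50 bp, 39.6% from 50 to 99 bp, 36.6% from 100 to 199 bp, 39.6% from 200 to 299 bp and 35.6% from 300 to 500 bp. At the members' own TSSs all positions in these ranges had medians of 45.5%, 41.6%, 41.6%, 42.6% and 41.6%. Next to the TSS member summits were thus within 1 point of their surroundings, and at the far end they were 6 points lower. Intronic members had a median of 32.2% and those in 5′ UTR exons 41.6%. From the 108 strongest members to the 108 weakest the median went from 31.7% through 36.6%, 42.6% and 40.6% to 43.6%. All of the 20 strongest members were lower at the summit than in their flanks, with values from 20.8% at CG8320 to 45.5% at CG5854.

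**Figure D4:**
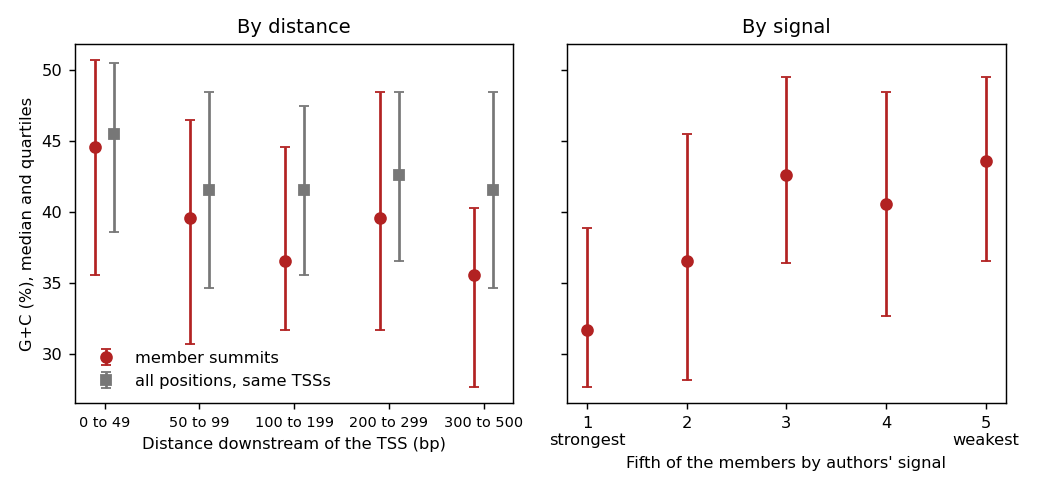
G+C in the 101 bp around the summit (y axis, percent; points are medians and bars quartiles) by distance from the TSS in bp (left, members in red and all positions at the same TSSs in grey) and by signal (right, from the 108 strongest to the 108 weakest members). Medians are 44.6% next to the TSS and 35.6% beyond 300 bp, and 31.7% in the strongest and 43.6% in the weakest members.

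The C-box was more frequent in members than in upstream peaks. Counted on both strands and up to 50 bp from the summit, it was present in 31 members (5.76%), against 1.42% of all IDR peaks and 30 of the upstream peaks (1.57%). In replicates 1, 2 and 3 the downstream share was 5.25%, 4.56% and 4.92%, and the upstream share 1.39%, 1.29% and 1.61%. No upstream share reached any downstream share, and the difference was 3.48 ± 0.329 points (SD, n = 3, exact sign-flip permutation test, p = 0.25). The C-box was chosen for this comparison after its values were seen. Census positions held it in 3.26% of windows of the same length, and in 2.41% when weighted to the G+C of the members in steps of 5 points. Windows 500 bp to either side of the member summits held it in 2.79% of cases.

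The excess was largest in G+C-rich members. With 50% G+C or more, 15 of 91 members (16.5%) held a C-box, against 4.58% of census positions and 6.18% of upstream peaks of the same composition. From 40% to 50% the values were 5.81%, 3.38% and 3.34%, and from 30% to 40% they were 3.43%, 1.77% and 1.07%. Below 30%, 1 of 117 members held one. Around the summits the number of C-boxes per 100 members was 6.69 within 50 bp, 5.95 from 50 to 100 bp and 4.83 from 100 to 150 bp, and between 2.42 and 4.83 beyond. Around upstream peaks it was lowest at the summit, 1.67, and 3.03 or more beyond 100 bp. The C-boxes thus leaned toward the member summits but were not confined to them.

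**Figure D5:**
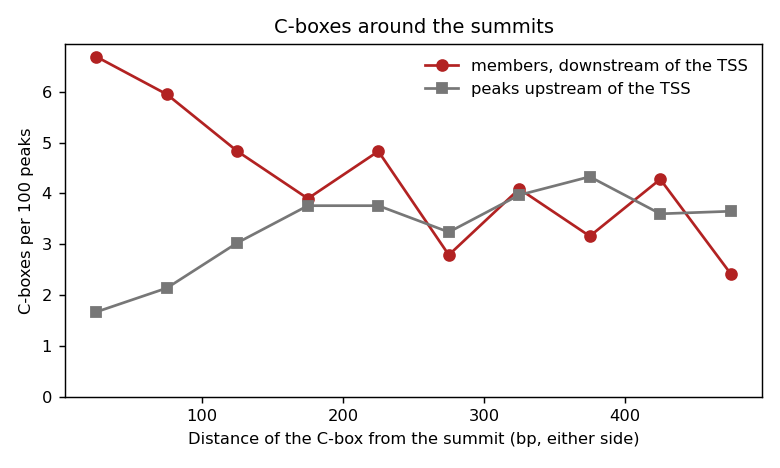
C-boxes per 100 peaks (y axis) by distance from the summit in bp, both sides together in steps of 50 bp (x axis), for the 538 members (red) and the 1916 upstream peaks (grey). The values nearest the summit are 6.69 and 1.67, and from 150 to 200 bp they are 3.90 and 3.76.

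Members with a C-box were mostly of middle or low signal. Neither hexamer was found within 50 bp of the summit in the 20 strongest. Of all members 36 (6.69%) held either, so nothing is read from that count. Of the 31 members with a C-box 2 were among the 108 strongest, 5 in the next group, then 10, 7 and 7, and their median signal was 152. RpL7, for a protein of the large ribosomal subunit, held the strongest (rank 588, signal 773), followed by Sxl, the switch gene of sex determination, in an intron at 366 bp (rank 1279). The others among the 10 strongest with a C-box or E-box were at koko, RpL27, norpA, which encodes the phospholipase C of phototransduction, Pdp, RpS23, Sik3, caps and Moe, with ranks from 2057 to 4717. For Sxl the replicate summits were at 382, 366 and 419 bp, and the C-box began 349 bp from the TSS. At koko, replicates 1 and 3 placed the summit at -34 and -10 bp and replicate 2 at 85 bp.

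The E-box was rare. It lay within 50 bp of 6 members (1.12%), against 0.787% of all IDR peaks, 0.939% of upstream peaks and 1.50% of census positions. Beside RpL7 and koko these were at Hsc70-4, a constitutive chaperone gene, Orct2, ome and aralar1, and the last 4 ranked between 5030 and 6776. In Hsc70-4 and aralar1 the centre of the E-box lay at -0.5 and 2.5 bp from the summit. The core GCGTG, which every C-box contains on one of its strands, was at 91 members (16.9%), 7.93% of upstream peaks and 14.3% of census positions. CATATG was at 2.97% of members and 3.50% of upstream peaks, and CAGCTG at 4.83% and 4.49%.

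The promoter elements DRE and motif 1 were found at few member summits. DRE, the element TATCGATA of many housekeeping promoters, lay within 50 bp of 5 members (0.929%) and 47 upstream peaks (2.45%), and in 0.464% of census windows. In replicates 1, 2 and 3 the downstream shares were 0.701%, 1.40% and 1.34% and the upstream shares 3.43%, 1.90% and 2.58%. The difference was -1.49 ± 1.14 points and lay in the same direction in 3 of 3 replicates (SD, n = 3, exact sign-flip permutation test, p = 0.25). The members with DRE were at RpL27, RpL39, Rap2l, MED17, for a Mediator subunit, and CkIalpha, all within 47 bp of the TSS. Motif 1, GGTCACACT, was at 3 members, RpL7, RpS23 and RpS15, which all encode ribosomal proteins. It was at 0.835% of upstream peaks and 0.466% of census windows.

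The GAGA element GAGAGAG lay at 11 members (2.04%), 2.40% of upstream peaks and 1.16% of census windows. The difference over replicates was -0.261 ± 0.689 points (SD, n = 3, exact sign-flip permutation test, p = 0.750), smaller than its spread. The strongest of these members were at Cat, the splicing factor gene B52, psq, Pits and CG1572. TATAAA was at 14.9% of members, 22.7% of upstream peaks and 8.52% of census windows. Weighted to the members' G+C the census gave 14.8%, the level seen in members. Runs of 7 A were at 16.2% of members and 12.7% of upstream peaks, with 11.9% in the census at the members' G+C. Repeats of CA, CACACACA, were at 3.53%, 1.2% and 2.35%. The early embryonic activator site CAGGTAG, with 3 members, the AP-1 site TGANTCA, with 12, and the GATA site AGATAAG, with 3, were at 0.558%, 2.23% and 0.558% of members and 0.678%, 1.88% and 1.57% of upstream peaks. A match of letters is not a binding site, and the absence of one says nothing of the factor.

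Genes of cytoplasmic ribosomal proteins held members close to the TSS. Of 91 such genes 15 (16.5%) held a member, against 3.56% of all 13945 coding genes, and 42 (46.2%) held an upstream peak, against 11.9%. In replicates 1, 2 and 3 the number with a downstream peak was 10, 16 and 15. All 15 members lay within 31 bp of the TSS, at a median of 9 bp, with ranks from 588 to 8022 and G+C from 30.7% to 61.4%. The strongest were RpL7 at 23 bp, RpL24 at 9 bp, RpS4 at 15 bp and RpL9 at 8 bp. At RpL24 the replicates placed the summit at -21, 12 and 6 bp, and at RpL9 at -11, 7 and 96 bp. In 12 of the 15 at least 1 replicate placed it upstream. At RpL7, RpL3 and RpS15 all 3 replicate summits lay downstream of the TSS, and 9 of the 15 also lay upstream of a further TSS.

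Cytoskeletal genes had the highest share of the lists. Of 27 genes 8 (29.6%) held a member, against 3.56% of all coding genes, and 6 (22.2%) held an upstream peak, against 11.9%. The number with a downstream peak varied between the replicates, 6, 5 and 10. The strongest member of each gene lay 6 to 123 bp from the TSS, and alphaTub84B and Moe had a weaker one at 241 and 468 bp. The strongest were at sqh (123 bp, rank 1254), which encodes the regulatory light chain of nonmuscle myosin, alphaTub84B (40 bp), betaTub56D (26 bp) and chic (6 bp), the profilin gene, and at 4 further genes. At alphaTub84B the replicate summits were at 38, 25 and 40 bp, with ranks of 3990, 2667 and 2380. At sqh they were at 127, 135 and 123 bp. Replicates thus agreed on a downstream position at both genes, and at chic replicates 1 and 2 placed the summit at -4 and -3 bp.

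Ecdysone drives the onset of metamorphosis, and 4 of 34 genes of the ecdysone response (11.8%) held members, against 3.56% of all coding genes. Eip75B, which encodes a nuclear receptor and is also in the juvenile hormone list, had 1 member at 28 bp of rank 191 (3L, 17999553 to 18000069) and another at 95 bp of a different TSS with rank 6101. Eip63F-1, for a calcium-binding protein, had its summit at 472 bp in an intron (rank 582). The replicates placed it at 474, 473 and 477 bp. Hr78, for another nuclear receptor, had its summit at 1 bp (rank 3492) and Eip63E, for a cyclin-dependent kinase, at 390 bp (rank 8400). Upstream peaks were present at 17 of the 34 genes, while 11.9% of all coding genes held one. Of 15 juvenile hormone response genes 1 (6.67%), Eip75B, held a member, and 5 held an upstream peak. With 1 gene this share is not told apart from the 3.56% of all coding genes. Of the 14 genes of the juvenile hormone receptor and its partners none held a member in the IDR list, and 7 held an upstream peak. In the lists of replicates 1, 2 and 3, 0, 1 and 2 of them held a downstream peak. At 3.56% of genes, 0 in so short a list is near the background.

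The other lists held 0 to 3 genes with a member each. Among chromatin and transcription cofactors 3 of 40 genes (7.5%, against the 3.56% of all coding genes) held one, Chro, ph-p and Trl, the gene of the GAGA factor (123 bp, rank 890). Among translation factors these were eIF3h, eEF2 and eIF4H1, 3 of 36 (8.33%). The clock list gave 2 of 13 (15.4%), vri at 33 bp and Pdp1 at 326 bp, which encode bZIP proteins of the clock. Insulin and growth signalling gave 2 of 22 (9.09%), sima, a bHLH-PAS gene of the hypoxia response, and Mnt, whose protein opposes Myc. Heat shock gave Hsc70-4 (1 of 16) and programmed cell death Diap1 (1 of 26), the caspase inhibitor gene. Shares near the background were seen for mitochondrial ribosomal proteins (2 of 75, mRpL23 and mRpS5), proteasome subunits (1 of 48, Rpn3) and the respiratory chain (2 of 90, ND-B22 and ATPsynbeta). No member lay at 35 vesicle traffic genes, 20 neuron markers, 123 cuticle protein genes or 120 odorant and gustatory receptor genes. At 3.56% of genes, 0 in the 2 shorter lists is near the background, and each replicate list had downstream peaks at 2 vesicle traffic genes. Upstream peaks were present at 9, 2, 1 and 0 genes of these 4 lists.

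Several members at 1 gene were uncommon. There were 457 genes with 1 member, 36 with 2 and 3 with 3. Some pairs lay at the same TSS, as at CG6785 (350 and 134 bp) and CG18622 (214 and 2 bp), where the peaks overlapped. Whether such pairs are separate sites was not tested. The strongest of the genes with more than 1 were Eip75B, ogre, an innexin gene, puc, for a phosphatase that restrains JNK, egh, cnc, CG18622, CHES-1-like, eIF3h, lolal and CG6785. At cnc, which encodes a bZIP factor of the Nrf2 family, the 3 members lay at 330, 80 and 41 bp from different TSSs with ranks of 629, 4708 and 7844. The strongest was intronic with 31.7% G+C, and the others lay in 5′ UTR exons with 56.4% and 50.5%. Another IDR summit lay within 500 bp of 89 members (16.5%), and in 50 of these (56.2%) the neighbour was the stronger. The same share over all IDR peaks was not taken, so nothing is read from this count. In 72 of the 89 the spacing was 190 to 230 bp, and none was closer than 199 bp.

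By chromosome arm the share of members was above that of coding TSSs on X and within 3 points of it on the other arms. X held 115 (21.4% of members and 16.9% of coding TSSs, with 19.8% of all IDR peaks), 3R 114 (21.2% and 23.7%), 2R 108 (20.1% and 20.6%), 2L 102 (19.0% and 18.8%), 3L 95 (17.7% and 19.3%) and chromosome 4 held 4 (0.743% and 0.724%). As a share of the IDR peaks of each arm, members made up 5% on 3L and 7.69% on 2R, the lowest and highest values of the 5 large arms.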

How the data were processed

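ChIP-seq peak lists of 3 biological replicates of Met-GFP white prepupae, all 1 group, were used in dm6 coordinates. Per the labels, chromatin was sonicated to fragments of 200 to 800 bp. Per the text listings, relaxed lists of 30000 peaks were called for each replicate and for the pool against a shared control, and the IDR list was derived from them. The aligner and caller were not given in the sources used here. All deposited lists give the authors' signal for each peak, and the −log10 of its q-value, whose highest value is shared by 5752 deposited IDR peaks and which ranked nothing. The IDR peaks are the strongest 8513 of the pooled list. The libraries' depth is unknown, so no counting interval is given, and p-values measure only the spread between these 3 samples. The dm3 lists were not used.

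Genes and TSSs came from Ensembl release 115 (BDGP6.54, 13945 coding genes and 19607 coding TSSs, without pseudogenes and transposable elements) and sequence from RefSeq Release 6. At equal distance a coding TSS was taken first, then one with the summit downstream. Replicate lists were taken to their 8513 strongest peaks, of which 8513, 8497 and 8506 lay on the major arms. Downstream and upstream peaks of the same list were compared by exact sign-flip permutation over replicates. G+C and 14 motifs were read within 50 bp of the summit. Python 3.11.15, numpy 2.4.6 and pandas 2.3.3 were used. The class and motif steps were tested on simulated data: all of 200 peaks planted downstream were recovered, as were 40 of 40 planted C-boxes. The members, 18 gene lists, motifs and tests were chosen with earlier results of these data known. Named genes are those of the 20 strongest members, all members of the 3 hormone lists, up to 4 genes of every other list, the 10 strongest members with an E-box or C-box, up to 10 genes with several members, the 5 strongest with DRE, motif 1 and GAGA, and the 3 peaks at each edge. The last 4 E-box members, genes across the promoter and CG5854, CG6287 and Cat as intron examples were picked after their values were seen.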

Additional observations from a re-analysis of the deposited data

How the results depend on the processing

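The share of IDR peaks that were members, 6.32%, was 6.27% with peak middles in place of summits, and moved to 5.52% among the 4256 strongest peaks, 5.31% with the most upstream TSS of each gene only and 4.77% with a range of 0 to 250 bp. The median distance of 98.5 bp moved to 111 bp, 102 bp, 116 bp and 65.0 bp among the 4256 strongest peaks, with peak middles, with 1 TSS per gene and with the shorter range. The mean over the replicate lists was 6.71% to 7.30% and 96.5 to 98.0 bp when each replicate was left out. Recurrence in all 3 replicates, 67.5%, was 96.6% among the 4256 strongest peaks, 95.7% with whole relaxed lists and 51.5% with reciprocal overlap of at least 50%, and recurrence in the other 2 was 72.3% to 77.0% without each replicate. The GAGA difference of -0.261 points turned to 0.677 with 1 TSS per gene and to 0.0960 without replicate 1 (range without each replicate -0.592 to 0.0960). Its causes were not tested. The differences in G+C, signal percentile, width, DRE and C-box kept their direction under every alternative run. The C-box difference was 1.81 with windows of 25 bp to each side and 5.50 with 100 bp. Among the stronger peaks the signal difference was -5.46 and the width difference 6.22 bp. Without replicate 1 the DRE difference was -0.869. The smallest p of the exact sign-flip test over 3 replicates is 0.25. Unknown depth limits every statement on absent peaks: a gene without a member may hold a weaker one.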
